A study of Mus musculus with 8 samples.

Results

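The genes that carry a cell from G1 into S phase were examined in ventricles of mouse embryos with a deletion of Rps19bp1 directed to cardiomyocytes. The group comprised 10 genes of the 52778 rows in the expression table, chosen by symbol on the primary chromosomes: the D cyclins Ccnd1, Ccnd2 and Ccnd3, the E cyclins Ccne1 and Ccne2, the kinases Cdk2, Cdk4 and Cdk6, the phosphatase gene Cdc25a and the ubiquitin ligase gene Skp2. RNA was sequenced from ventricular heart tissue at embryonic day 11.5, in 4 libraries labelled as conditional knockout (cKO) and 4 labelled as control. The cKO embryos were Rps19bp1 fl/fl, with both copies of the gene floxed, and carried Xmlc2-Cre +/−, a recombinase transgene that targets cardiomyocytes and not the other cells of the ventricle. The alleles carried by the control embryos were not given in the sources used here, and the genotype field names wild-type C57BL/6 for all 8 libraries. Values are TPM, a unit that is per transcript length and scaled to the same total in each library, so levels can be compared between genes.

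D cyclins are made in response to growth signals and pair with Cdk4 or Cdk6. These complexes begin to phosphorylate the retinoblastoma family of pocket proteins, which frees E2F transcription factors to switch on S phase genes, among them the E cyclins. Cyclin E with Cdk2 completes the step, Cdc25A removes an inhibitory phosphate from Cdk2, and Skp2 marks the inhibitor p27 for destruction. In the embryonic ventricle most growth is by division of cardiomyocytes, and loss of all D cyclins in mice is known to impair heart growth.

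Before the 10 genes were read, the libraries were checked. Rps19bp1 stood at 39.9 TPM ± 3.93 (SD, n = 4) in control and 14.96 TPM ± 3.14 (SD, n = 4) in cKO. TPM keeps no depth, and the series text gives only 1 approximate read number for all libraries, so the depth behind each value is unknown. Cardiomyocyte markers were abundant in every library, with a summed level of 60425 to 65694 TPM over 20 genes in control and 60319 to 63500 TPM in cKO, while 8 of 10 neuronal markers had a mean under 1 TPM. Transcripts of the mitochondrial chromosome took 11.4% to 12.2% of TPM in control and 13.2% to 16.2% in cKO, so the groups did not overlap, and a larger share of these lowers all other TPM values slightly. The series text calls the 4 libraries of a group biological replicates without naming animals or litters, so p-values measure the spread between these libraries, which all carry the same batch label.

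All 10 genes passed the filter of a mean of at least 1 TPM. Among them Ccnd2 rose in cKO and Ccne1, Ccne2, Cdk2 and Cdc25a fell, so 5 of 10 passed limma's test at a Benjamini-Hochberg adjusted p under 0.05 over all 15541 tested rows. Of all tested rows 6.40% passed, made up of 2.16% higher and 4.23% lower in cKO. In numbers, 336 were higher and 658 lower, a split that was 383 and 380 after quantile normalization, 383 and 419 after median-ratio scaling, 392 and 394 with mitochondrial and globin genes dropped from the total, and 407 and 536 with trends in GC content and length removed. The groups did not overlap for 7 of the 10 genes, 3 of which were higher (Ccnd1, Ccnd2 and Cdk6) and 4 lower in cKO (Ccne1, Ccne2, Cdk2 and Cdc25a). Over all tested rows this held for 15.6%, 5.33% higher and 10.3% lower. The median log2 change was -0.12 over the 10 genes and -0.02 over all tested rows. All log2 changes refer to TPM + 1 and so understate the change where TPM is low. Because these are bulk tissue libraries, fewer cells of a type and less RNA per cell cannot be told apart.

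**Figure D1:**
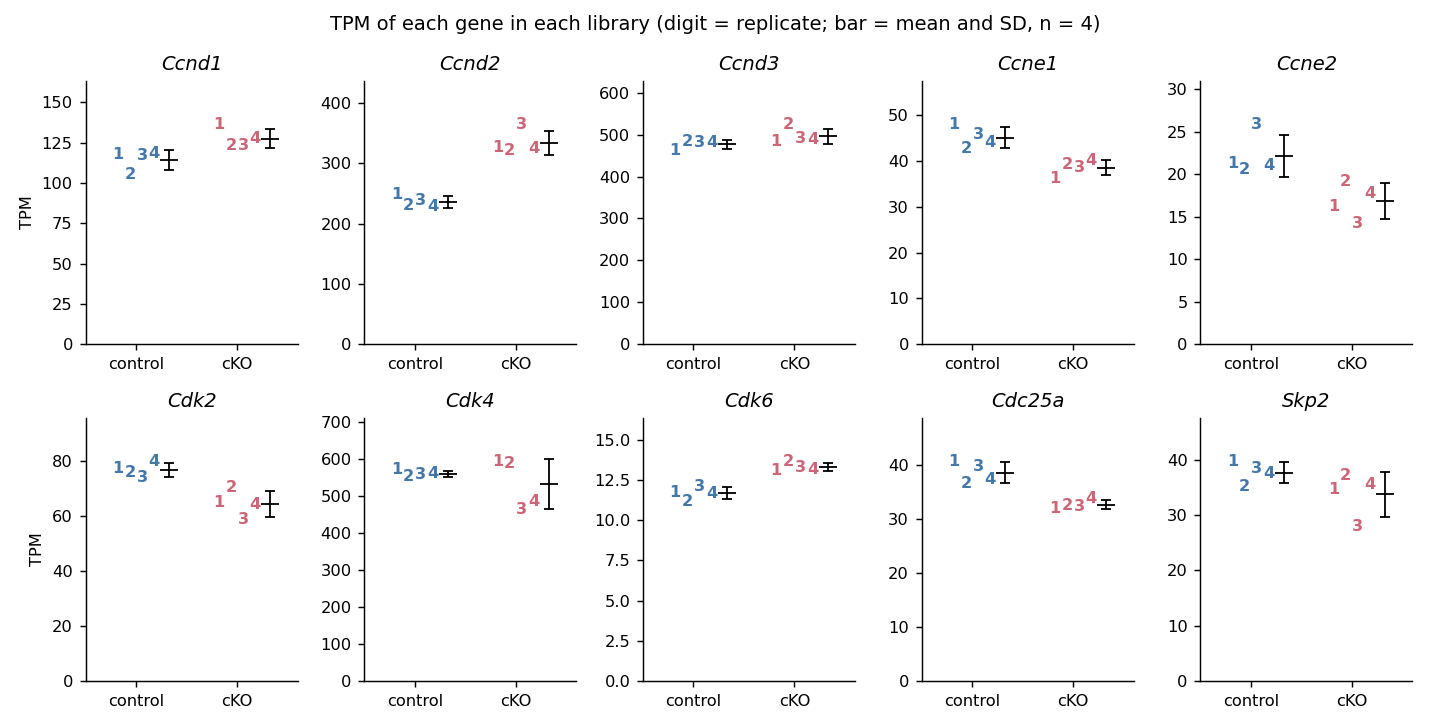
TPM (y axis, from 0) of each of the 10 genes in the 4 control and 4 cKO libraries, each digit being a replicate and each bar the mean and SD. Ccnd2 lies at 228.5 to 249 TPM in control and 321 to 364 TPM in cKO, while Cdk4 in cKO splits between 464 and 484 TPM in replicates 3 and 4 and 586 and 592 TPM in replicates 2 and 1.

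The D cyclins were the most abundant cyclins of the group, and of their 3 genes Ccnd2 passed the test. Ccnd2 (chr6:127125162-127152188, minus strand, GRCm38) encodes cyclin D2. It stood at 249, 229.6, 238 and 228.5 TPM in control replicates 1 to 4 and at 327, 321, 364 and 325 TPM in cKO replicates 1 to 4. Every cKO library lay above every control library, and cKO replicate 3 was the highest. The mean rose from 236 ± 9.41 to 334 ± 20.04 TPM (SD, n = 4), to 142% of the control mean, and the log2 change was 0.50 with SE 0.0535 (limma adjusted p = 0.00129). Ccnd2 was the 1 gene of the 10 that kept its call under all 19 alternative settings, in which its log2 change ranged from 0.46 to 0.56.

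Ccnd1 (chr7:144929931-144939831, minus strand) encodes cyclin D1. It stood at 118, 105, 117 and 118 TPM in control and at 136, 123, 123 and 127 TPM in cKO. The groups did not overlap, but the log2 change of 0.15 did not pass the test (95% interval 0.04 to 0.27, limma adjusted p = 0.118). Ccnd3 (chr17:47505051-47599689, plus strand) encodes cyclin D3 and had the highest level of the 5 cyclins. It stood at 462, 484, 481 and 481 TPM in control and at 484, 523, 491 and 488 TPM in cKO. The groups overlapped, and the log2 change was 0.06 (95% interval -0.04 to 0.16, limma adjusted p = 0.484).

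The summed level of the 3 D cyclins rose from 828 ± 6.85 to 958 ± 17.6 TPM (SD, n = 4, exact two-sided permutation p = 0.0286, adjusted p = 0.0367 over 9 such measures). The smallest p that this test can give with 4 against 4 libraries is 0.0286. The 9 measures were chosen with earlier results of these data known. Sums and shares are built from the same values as the single genes, so their p-values are not separate evidence. The D cyclin sum and the Ccnd2 share both contain Ccnd2, whose mean rose from 236 to 334 TPM. The share of Ccnd2 in the sum rose. It was 30.1%, 28.03%, 28.4% and 27.6% in control and 34.5%, 33.2%, 37.2% and 34.6% in cKO, higher in all 4 cKO libraries (exact permutation p = 0.0286, adjusted p = 0.0367). Shares of 1 sum are not independent, so the Ccnd3 share is the counterpart of this rise, while Ccnd3 TPM itself was not lower in cKO. The Ccnd3 share was lower in all 4 cKO libraries, at 51.8% ± 1.68 against 57.6% ± 1.41 (SD, n = 4, exact permutation p = 0.0286, adjusted p = 0.0367), and the exact p was 0.0571 without control replicate 2. The Ccnd1 share was 13.8% ± 0.657 in control and 13.3% ± 0.815 in cKO, and the difference lay within the spread of the replicates (SD, n = 4, exact permutation p = 0.343, adjusted p = 0.343).

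Both E cyclins fell. Ccne1 (chr7:38097984-38107490, minus strand) encodes cyclin E1, which activates Cdk2 late in G1. It stood at 47.8, 42.7, 45.7 and 44.02 TPM in control and at 36.1, 39.2, 38.6 and 39.99 TPM in cKO. All cKO values lay below all control values, and the mean fell from 45.1 ± 2.22 TPM in control to 38.5 ± 1.68 TPM in cKO (SD, n = 4; log2 change -0.22 with SE 0.053, limma adjusted p = 0.0381). Ccne2 (chr4:11190433-11204779, plus strand) encodes cyclin E2. It stood at 21.2, 20.5, 25.8 and 20.97 TPM in control and at 16.2, 19.1, 14.2 and 17.7 TPM in cKO. The groups did not overlap, control replicate 3 stood above the other control libraries, and the mean fell from 22.1 ± 2.45 TPM in control to 16.8 ± 2.12 TPM in cKO (SD, n = 4; log2 change -0.38 with SE 0.0984, limma adjusted p = 0.0498). Both calls lay near the threshold. When 1 library was left out at a time, Ccne1 kept its call without cKO replicate 4 and lost it without any 1 of the other 7 (limma adjusted p from 0.0445 to 0.0994 over the 8), and Ccne2 kept it without cKO replicate 2 and lost it without any 1 of the other 7 (0.0413 to 0.116).

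The summed E cyclin level fell from 67.2 ± 3.76 to 55.3 ± 3.19 TPM (SD, n = 4, exact permutation p = 0.0286, adjusted p = 0.0367). After rescaling without mitochondrial and globin genes it was still lower in all 4 cKO libraries, by a mean difference of -12.01 TPM (exact permutation p = 0.0286). This rescaling raises every value, so that difference cannot be set against the unscaled one. The single genes then had limma adjusted p of 0.0745 (Ccne1, log2 change -0.19 against -0.22 as reported) and 0.0647 (Ccne2, -0.35 against -0.38). The Ccne1 share of the sum was 67.1% ± 2.25 in control and 69.6% ± 2.48 in cKO, a difference within the spread between replicates (SD, n = 4, exact permutation p = 0.257, adjusted p = 0.289). The ratio of D to E cyclin TPM was not among the 9 measures. It was computed after the values were seen and is given without a test. It was 11.7 to 12.95 in control and 16.3 to 18.5 in cKO.

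**Figure D2:**
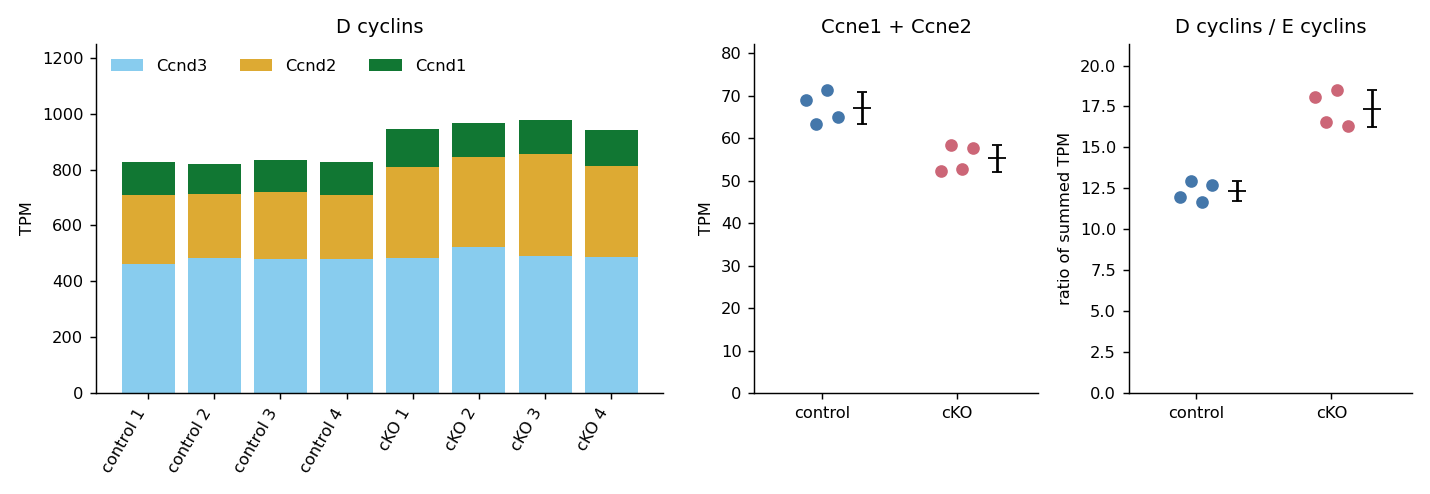
Left, stacked TPM of Ccnd3, Ccnd2 and Ccnd1 in each of the 8 libraries; middle, summed TPM of Ccne1 and Ccne2; right, ratio of the sums, with 1 point per library and bars for the mean and SD (n = 4). The D cyclin sum is 819 to 836 TPM in control and 941 to 978 TPM in cKO, and the ratio is 11.7 to 12.95 against 16.3 to 18.5.

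Of the 3 kinases, Cdk2 fell. Cdk2 (chr10:128697938-128705051, minus strand) encodes the partner of the E and A cyclins. It stood at 77.4, 75.8, 73.99 and 79.96 TPM in control and at 65.2, 70.4, 58.7 and 64.2 TPM in cKO. All cKO libraries were below all control libraries, and replicate 3 was the lowest of the cKO group. The mean fell from 76.8 ± 2.53 TPM in control to 64.6 ± 4.76 TPM in cKO (SD, n = 4; log2 change -0.25 with SE 0.0577, limma adjusted p = 0.0354). Without 1 library at a time it kept its call without cKO replicate 2 and lost it without any 1 of the other 7 (limma adjusted p from 0.0255 to 0.0832 over the 8).

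Cdk4 (chr10:127063535-127067288, plus strand), a D cyclin kinase, was the most abundant of the 10 genes in control. It stood at 570.3, 552, 556 and 559.8 TPM in control and at 592, 586, 464 and 484 TPM in cKO. Control libraries lay close together, with a coefficient of variation of 1.42%, whereas cKO replicates 1 and 2 were above all control libraries and cKO replicates 3 and 4 below them, with a coefficient of variation of 12.6%. The log2 change of -0.08 did not pass (95% interval -0.26 to 0.10, limma adjusted p = 0.587). Replicates 3 and 4 were also the cKO libraries with the larger mitochondrial shares, 16.2% and 14.1% against 13.2% in both others, and the part of that share in the spread of the cKO values was not tested. With mitochondrial and globin genes dropped from the total, the log2 change was -0.05 (limma adjusted p = 0.753). Cdk6 (chr5:3341004-3531008, plus strand), the other D cyclin kinase, had the lowest level of the group. It stood at 11.7, 11.2, 12.1 and 11.7 TPM in control and at 13.1, 13.7, 13.3 and 13.2 TPM in cKO. The groups did not overlap, but the log2 change of 0.18 was not past the threshold (95% interval 0.06 to 0.29, limma adjusted p = 0.0788). It passed under median-ratio scaling (limma adjusted p = 0.049) and under none of the other 18 alternatives, over which the adjusted p reached 0.178.

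Cdk4 made up nearly all of the D cyclin kinase RNA, with a share of 97.96% ± 0.0603 of Cdk4 plus Cdk6 in control and 97.5% ± 0.298 in cKO (SD, n = 4, exact permutation p = 0.0286, adjusted p = 0.0367). The ratio of Cdk2 to Cdk4 TPM was 0.137 ± 0.00412 in control and 0.122 ± 0.00968 in cKO (SD, n = 4, exact permutation p = 0.0286, adjusted p = 0.0367). Its groups lay next to each other, with 0.1327 the highest cKO value and 0.1331 the lowest control value. Without any 1 control library the exact p was 0.0571 to 0.0857 for the Cdk4 share and 0.0571 for the ratio.

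Cdc25a fell and Skp2 did not pass the test. Cdc25a (chr9:109875518-109893895, plus strand), whose phosphatase activates Cdk2, stood at 40.6, 36.5, 39.6 and 37.2 TPM in control and at 31.8, 32.5, 32.2 and 33.7 TPM in cKO. The groups did not overlap and the cKO libraries lay within 2 TPM of each other. The mean fell from 38.4 ± 1.94 TPM in control to 32.6 ± 0.823 TPM in cKO (SD, n = 4; log2 change -0.23 with SE 0.0502, limma adjusted p = 0.0281). The call was lost without any 1 of cKO replicates 1, 2 and 3 and control replicates 1 and 3 (limma adjusted p from 0.0344 to 0.0809 over the 8 libraries left out in turn), and also once mitochondrial and globin genes were dropped from the total (0.0524). Skp2 (chr15:9111982-9155425, minus strand), the substrate receptor that binds p27, stood at 39.7, 35.2, 38.3 and 37.5 TPM in control and at 34.6, 37.1, 27.8 and 35.4 TPM in cKO. The groups overlapped, cKO replicate 3 was the lowest of the 8 libraries, and the log2 change was -0.16 (95% interval -0.35 to 0.03, limma adjusted p = 0.281).

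**Figure D3:**
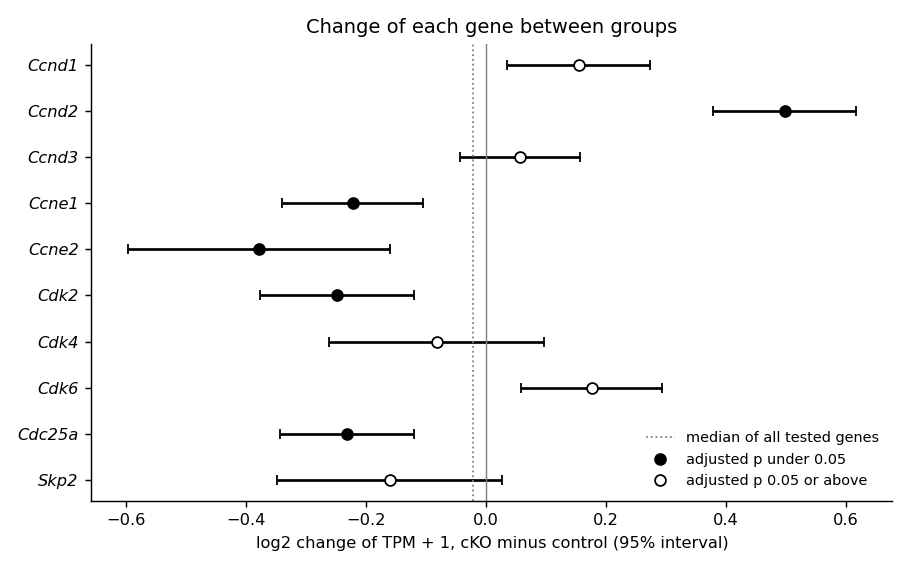
Log2 change of TPM + 1 between cKO and control (x axis) for each of the 10 genes, with the 95% interval from limma; filled points have an adjusted p under 0.05 and the dotted line is the median of all tested rows, -0.02. Ccnd2 lies at 0.50, and the 4 genes that fell lie between -0.38 and -0.22.

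Promoter windows of 300 bases (250 before and 50 from the start site on, RefSeq, GRCm38.p6) were found for 7 of the 10 genes, those without one being Ccnd1, Ccnd2 and Ccne2. They were searched on both strands for the E2F core TTNNCGC with C or G at each N, and for the E-box CACGTG that Myc with Max and other factors bind. The windows of Cdk2, Cdc25a and Cdk4 are shown because they held the most matches to these, with matches in capitals. Cdk2 and Cdc25a hold E2F cores and Cdk4 holds E-boxes. The windows are Cdk2 at chr10:128705002-128705301 (minus strand), Cdc25a at chr9:109875329-109875628 (plus strand) and Cdk4 at chr10:127063285-127063584 (plus strand).
Cdk2: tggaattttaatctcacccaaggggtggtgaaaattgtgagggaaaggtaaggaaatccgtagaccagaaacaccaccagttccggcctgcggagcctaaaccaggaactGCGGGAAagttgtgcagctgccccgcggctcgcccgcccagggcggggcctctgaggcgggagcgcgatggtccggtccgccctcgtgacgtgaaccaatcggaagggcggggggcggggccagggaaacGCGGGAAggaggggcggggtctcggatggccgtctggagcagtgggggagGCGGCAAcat
Cdc25a: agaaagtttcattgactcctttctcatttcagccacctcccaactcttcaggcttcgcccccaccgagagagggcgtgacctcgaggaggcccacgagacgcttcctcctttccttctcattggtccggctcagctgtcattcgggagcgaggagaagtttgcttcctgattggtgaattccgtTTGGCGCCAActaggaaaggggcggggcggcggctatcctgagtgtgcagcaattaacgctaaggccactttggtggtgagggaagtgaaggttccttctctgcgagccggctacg
Cdk4: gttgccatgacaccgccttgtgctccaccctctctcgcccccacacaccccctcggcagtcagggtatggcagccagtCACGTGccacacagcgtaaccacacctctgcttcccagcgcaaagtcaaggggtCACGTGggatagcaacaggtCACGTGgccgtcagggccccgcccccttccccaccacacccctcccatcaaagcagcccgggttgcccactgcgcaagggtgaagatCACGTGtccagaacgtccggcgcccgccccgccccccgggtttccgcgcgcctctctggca

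Cdk2 held 3 E2F cores, the first bases of which lay 140 and 10 bases before and 40 bases after the start site. Cdc25a held 2 overlapping cores on opposite strands, 66 and 63 bases before the start. Cdk4 held 4 E-boxes, at 172, 118, 98 and 11 bases before the start, and Cdk6 held 1. An E2F core was present in 9.57% and an E-box in 7.15% of all 32851 windows. The windows of Ccne1, Ccnd3 and Skp2 held neither set of letters. The hexamer TTTGAA, the cell cycle homology region of G2/M genes, was searched in the same way and found 2 times in a window of Skp2 and in 17.9% of all windows. A match is a description of the sequence, not of a factor bound there.

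In control, levels ran in the order Cdk4, Ccnd3, Ccnd2, Ccnd1, Cdk2, Ccne1, Cdc25a, Skp2, Ccne2 and Cdk6. Neighbours in this order did not overlap between control libraries, except Cdc25a and Skp2. In cKO the values of Cdk4 and Ccnd3 overlapped as well, as did those of Cdc25a and Skp2. Replicate 3 was the lowest cKO library for 4 genes (Ccne2, Cdk2, Cdk4 and Skp2) and the highest for Ccnd2. Of the 5 genes that passed, the 4 that fell stood at 76.01% to 85.4% of their control means in cKO.

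Several of the genes share genomic sequence with a neighbour on the opposite strand, and the use of strand in counting is not given in the sources used here. Ccne2 overlaps Ints8 over 5622 bases, and Ints8 stood at 22.7 to 28.1 TPM, near the level of Ccne2. Skp2 overlaps Lmbrd2 (12.1 to 13.6 TPM) over 14898 bases. Cdk2 lies wholly within Pmel, which stood at 0.624 to 1.18 TPM. Ccnd3 overlaps Gm41590 over 7217 bases, which stood at 0.0278 to 0.13 TPM. Ccnd2 overlaps 9330179D12Rik (0.301 to 0.925 TPM) over 2800 bases. Cdk6 overlaps Gm29868 (0 to 0.0795 TPM) over 19218 bases and Gm36470 (0.82 to 1.53 TPM) over 2556 bases. The overlaps of Ccne2 with A630034I12Rik (798 bases), Ccnd1 with LTO1 (818 bases), Ccnd3 with Bysl (359 bases) and Cdk4 with Tspan31 (2 bases) were shorter. Cdk4 and Cdk2 lie 1.63 Mb apart on chromosome 10.

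The genes that act with the 10 were read from 9 lists covering 69 genes, of which 66 were tested. In all, 14 were fitted higher and 52 lower, with a median log2 change of -0.17, and 1 was called higher and 22 lower. Over all tested rows 2.16% were called higher and 4.23% lower, with a median of -0.02. Among 7 CDK inhibitor genes, 5 were tested and Cdkn1a alone passed. Cdkn2a and Cdkn2b had a mean under 1 TPM and were not tested. Near that floor, Cdkn2b stood at 0.284 to 0.662 TPM in control and at 0.803 to 1.78 TPM in cKO, so its groups did not overlap. Cdkn1a, which encodes p21, a direct p53 target that binds Cdk2 complexes, stood at 24.9 to 33.1 TPM in control and at 137 to 198 TPM in cKO (log2 change 2.50, limma adjusted p = 6.53e-06). Set against the 5 cyclins together, Cdkn1a TPM was 0.0334 ± 0.00391 of their sum in control and 0.172 ± 0.0255 in cKO (SD, n = 4, exact permutation p = 0.0286, adjusted p = 0.0367). This ratio mainly restates the rise of Cdkn1a itself, so its p is not separate evidence. Cdkn1b, which encodes p27, did not pass the test (-0.23, limma adjusted p = 0.117), nor did Cdkn2c, which encodes the Cdk4 and Cdk6 inhibitor p18 (-0.15, limma adjusted p = 0.434).

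Downstream of the kinases, the 3 pocket protein genes included 0 calls with limma and 1 at an unadjusted p under 0.05. Of all 15541 tested rows, 3687 had an unadjusted limma p under 0.05. The log2 change was 0.11 for Rb1 (limma adjusted p = 0.47) and -0.17 for Rbl1 (limma adjusted p = 0.246). Of 10 E2F and DP factor genes 8 were fitted lower and 2 higher, with a list median of -0.17. For 6 of them all cKO libraries lay below all control libraries, against 10.3% of all tested rows. For 1 they lay above, against 5.33%. The test called 2 lower, where 4.23% of all tested rows were called lower. E2f1, an activator of S phase genes, fell from 42.1 ± 2.31 TPM in control to 27.2 ± 4.32 TPM in cKO (SD, n = 4; log2 change -0.62, limma adjusted p = 0.00772), and E2f8, an E2F family repressor, fell by 0.41 on the log2 scale (limma adjusted p = 0.0165; 0.0503 without cKO replicate 1). All 14 E2F target genes of S phase entry were fitted lower, with a median of -0.35. Of these 11 were called lower and 0 higher, against 4.23% and 2.16% of all tested rows. The 4 with the smallest p were Ung, a uracil glycosylase (-0.61), Rrm2, a ribonucleotide reductase subunit (-0.49), and the replication helicase genes Mcm6 (-0.43) and Mcm2 (-0.37), with limma adjusted p between 0.00128 and 0.0121. Pcna, the sliding clamp, was not past the threshold (-0.28, limma adjusted p = 0.082; 0.0423 without cKO replicate 1).

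All 5 genes for A and B cyclins and Cdk1 were fitted lower, and 4 were called lower, against 4.23% of all tested rows. These were Ccnb2 (-0.43), Ccna2 (-0.41), Ccnb1 (-0.33) and Cdk1 (-0.29), with limma adjusted p between 0.00281 and 0.0362. Ccna2 stood at 141 ± 3.63 TPM in control and 106 ± 8.88 TPM in cKO (SD, n = 4). The calls of Ccnb1 and Cdk1 depended on single libraries: that of Ccnb1 was lost without any 1 library except cKO replicate 2, and that of Cdk1 without any 1 control library. The proliferation marker Mki67 fell by 0.40 on the log2 scale (limma adjusted p = 0.00205). All 6 genes that control Cdc25a, oppose it or are its paralogs were fitted lower, and 3 were called lower, against 4.23% of all tested rows. These were Wee1 (-0.37), the gene of a Cdk1 and Cdk2 inhibitory kinase that opposes Cdc25a, and the paralogs Cdc25c (-0.39) and Cdc25b (-0.30). Their limma adjusted p lay between 0.00237 and 0.0232. Of 12 genes of the SCF ligase and of cyclin turnover, 4 were fitted higher and 8 lower. The test called 2 lower, where 4.23% of all tested rows were called lower. They were Cks2 (-0.33) and Usp28 (-0.21), a deubiquitinase, with limma adjusted p of 0.027 and 0.041. Usp28 kept its call without cKO replicate 2 and lost it without any 1 of the other 7 libraries, Cks2 lost it without any 1 of 6 libraries (cKO 2, 3 and 4, control 1, 3 and 4), and Cdc25b without any 1 of 4 (cKO 3, control 2, 3 and 4). Cks1b, the cofactor through which Skp2 recognises p27, did not pass the test (-0.31, limma adjusted p = 0.143). Of the 3 genes of the CDK-activating kinase, 0 were called with limma and 0 had an unadjusted p under 0.05. Of 8 tested genes of the Myc network, 0 were called and 1 had an unadjusted p under 0.05, with a median of -0.0023. For both lists the background is 3687 of all 15541 tested rows with an unadjusted limma p under 0.05.

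**Figure D4:**
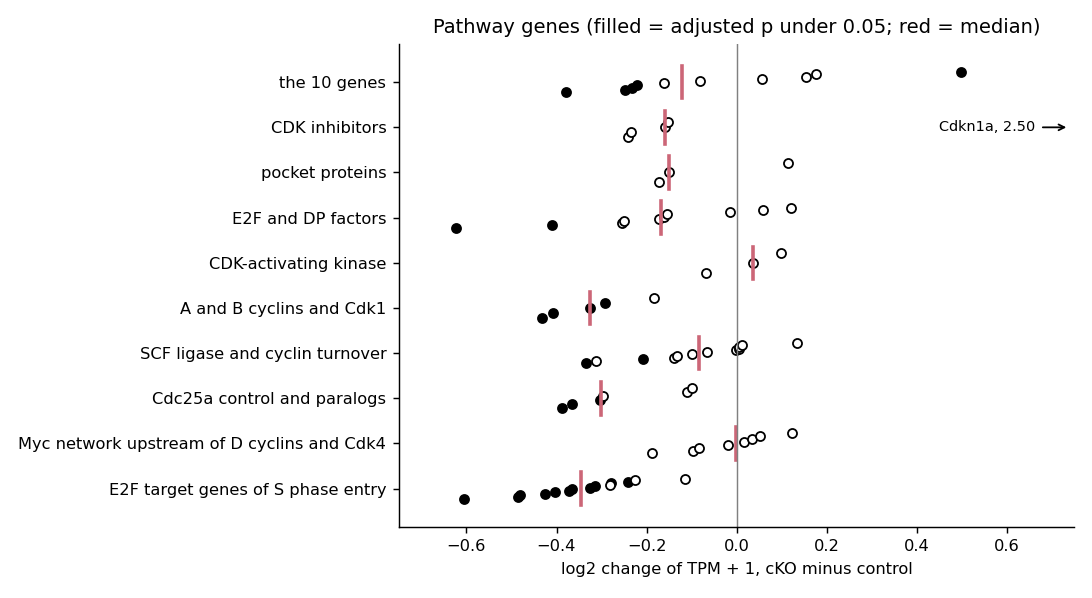
Log2 change of TPM + 1 between cKO and control (x axis) for the 10 genes and the tested members of the 9 pathway lists (rows); filled points have a limma adjusted p under 0.05, red bars are list medians, and Cdkn1a lies off the axis at 2.50. The medians run from -0.35 for E2F target genes to 0.04 for the CDK-activating kinase.

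Among markers of other cell types of the ventricle, the epicardial and mesenchymal sums did not overlap between the groups. The summed level of 12 epicardial markers was 420.1 to 485 TPM in control and 495 to 608 TPM in cKO, with 6 members called higher (2.16% of all tested rows were). That of 12 mesenchymal markers was 1049.6 to 1246 TPM in control and 1377 to 1519.5 TPM in cKO, with 4 called higher (Col1a2, Col3a1, Dcn and Pdgfra) and 1 lower (Fbln1, against 4.23% of all tested rows). Sums overlapped between the groups for 12 endocardial and endothelial markers (1092 to 1163 TPM in control and 1122 to 1274 TPM in cKO), 12 erythroid markers (2331 to 8446 and 2113 to 4488 TPM) and 12 macrophage markers (26.3 to 41.5 and 24.8 to 52.2 TPM). With limma 0 members of these 3 lists were called, and 5, 0 and 1 had an unadjusted p under 0.05. The same held for 3687 of all 15541 tested rows. The macrophage markers Adgre1 and Ptprc had a mean under 1 TPM. Of 20 cardiomyocyte markers 7 were fitted higher and 13 lower. Groups did not overlap for 2 that were higher and 3 that were lower, against 5.33% and 10.3% of all tested rows. Only 1 marker, Nkx2-5, was called, lower in cKO (log2 change -0.48, limma adjusted p = 0.0453), where 4.23% of all tested rows were. The marker genes named here were picked after their values were seen. The part of epicardial or mesenchymal RNA in the higher Ccnd2 level, or in any other change above, was not tested.

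**Figure D5:**
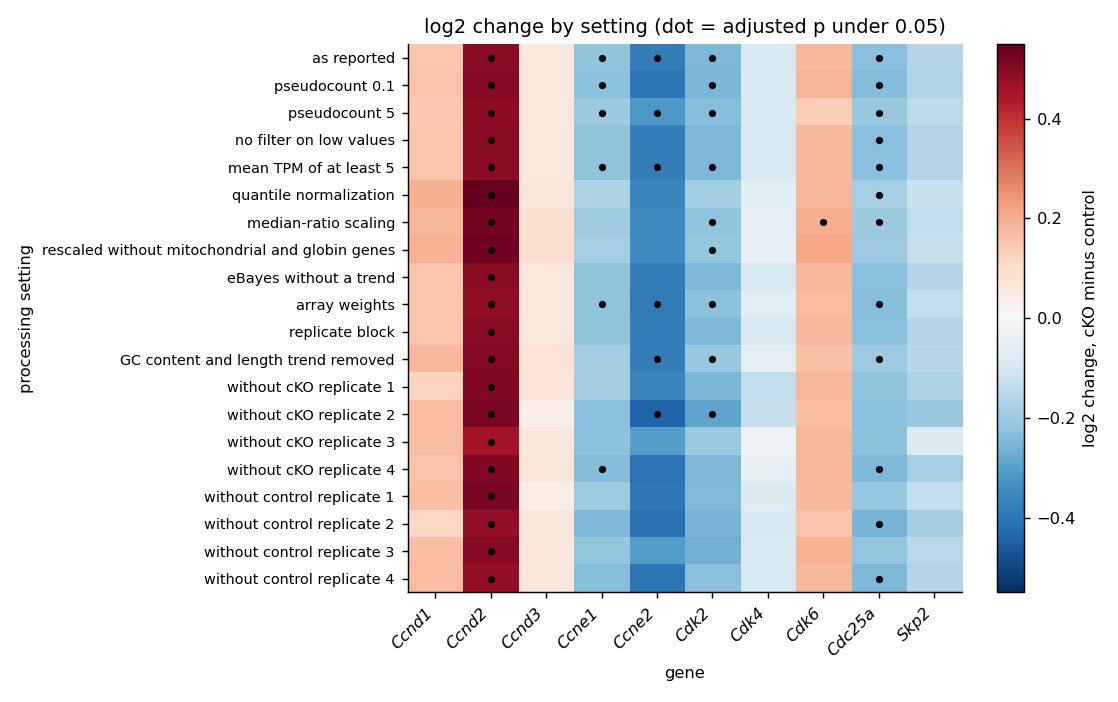
Log2 change of each of the 10 genes (columns) as reported and under 19 alternative settings (rows), on a colour scale from blue (lower in cKO) to red (higher in cKO); a dot marks a limma adjusted p under 0.05. The 10 genes keep their direction in every row, 4 above and 6 below 0, and Ccnd2 has a dot in all rows.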

How the data were processed

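RNA sequencing of 8 ventricle libraries was taken up from 1 deposited table of TPM values, 1 column per library, which the authors scaled to the same total in every library. Per the submitters' processing notes, the tools included FastQC, Trim Galore 0.6.7, HISAT2 2.2.1, StringTie 2.2.1, featureCounts and DESeq2, with GRCm38 as the build. Which of them made the TPM values, the annotation and the use of strand are not given in the sources used here. The labels contradict each other: the series text describes TRIzol extraction and a stranded mRNA kit, the extraction text cultured neurons and depletion of ribosomal RNA. Row names give symbol and position; 49588 of 49589 rows found by symbol and chromosome in the RefSeq table of GRCm38.p6 had the same coordinates. Groups came from the sample titles. Depth is unknown.

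Values were analysed as log2(TPM + 1) for rows with a mean of at least 1 TPM, with limma 3.58.1 in R 4.3.3 (lmFit and eBayes with trend, two-sided, Benjamini-Hochberg adjustment over 15541 rows). Single measures were compared by an exact permutation test over 70 assignments of libraries to groups, adjusted over 9 measures. Genes named were the 10, Rps19bp1, 10 preset pathway genes and up to 4 called genes per direction and pathway list. Skp1a was read as Skp1. The 10 genes, the lists and the tests were chosen with earlier results of these data known. Alternatives were pseudocounts of 0.1 and 5, no filter or a mean of at least 5 TPM, scaling by quantiles, by median ratios or to the total left after mitochondrial and globin genes were dropped, eBayes with no trend, array weights, a replicate block, a correction for GC content and length (known for 94.07% of tested rows) and leaving out each library. No comparison of protein sequences was made. Figures were drawn with matplotlib 3.10.9.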

Additional observations from a re-analysis of the deposited data

Results flagged for a closer look

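Of 86 groups of 4 libraries (43 genes and measures in each group), 6 held 1 library far from the other 3, and chance alone sets such a library apart in about 1 in 20 groups. Among the 10 genes, Ccnd1 was lowest in control replicate 2, at 105.3 TPM against 117 to 118 TPM in the other control libraries. Ccnd2 was highest in cKO replicate 3, at 364 TPM against 321 to 327 TPM. Without that library its log2 change was 0.46 and it stayed past the threshold (limma adjusted p = 0.0024). Ccnd3 was lowest in control replicate 1, at 462 TPM against 481 to 484 TPM. Ccne2 was highest in control replicate 3, at 25.8 TPM against 20.5 to 21.2 TPM, and without it the log2 change was -0.30 (limma adjusted p = 0.116). Outside the 10, Ccnb2 was lowest in cKO replicate 3, at 72.8 TPM against 79.5 to 80.6 TPM, and Cdc25c was lowest in cKO replicate 4, at 13.96 TPM against 15.7 to 16.05 TPM.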

How the results depend on the processing

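The log2 changes of the 10 genes kept their sign under all 19 alternatives, and the number that passed the threshold did not. It was 5 as reported, 2 with no filter on low values, 2 after quantile normalization (Ccnd2 and Cdc25a in both), 2 after rescaling without mitochondrial and globin genes (Ccnd2 and Cdk2), and 1, Ccnd2, both with eBayes without a trend and with the replicate block. It was 4 after median-ratio scaling, where Ccne1 (limma adjusted p = 0.0568) and Ccne2 (0.0611) were lost and Cdk6 (0.049) was gained, and 4 with GC content and length corrected, where Ccne1 was lost (0.0626). It ranged from 1 to 3 when single libraries were left out. Over all rows, 994 genes were called as reported, 347 with no filter, 609 without a trend, 420 with the replicate block and 388 to 936 with single libraries left out. Of the 994 calls 336 were higher and 658 lower, against 383 and 380 after quantile normalization, 383 and 419 after median-ratio scaling and 392 and 394 after rescaling and 407 and 536 with GC content and length corrected. The cause of these differences was not tested, except that leaving out a library means fewer samples. No pairing of libraries by replicate number was visible: the correlation of deviations between same-numbered libraries was -0.01, 0.07, 0.06 and -0.09 for numbers 1 to 4. These values cannot show whether same-numbered libraries shared a litter, which the labels do not give.

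With single libraries left out, the difference (cKO minus control) ranged from -6.58 to -5.27 percentage points for the Ccnd3 share of D cyclins, from -0.53 to -0.321 percentage points for the Cdk4 share and from -0.0183 to -0.0108 for the ratio of Cdk2 to Cdk4. The summed D and E cyclins, the Ccnd2 share and the Cdkn1a ratio kept an exact permutation p of 0.0286 throughout. Of 19 alternatives, calls were lost under 14 for Ccne1, 14 for Ccne2, 11 for Cdk2, 8 for Cdc25a and 0 for Ccnd2. Among the other named genes, calls were lost under 14 of 19 alternatives for Usp28, 11 for Ccnb1, 8 for Cdk1, 8 for Cks2, 6 for Cdc25b, 2 for E2f8 and 1 for Cdc25c. With 4 libraries a group, the 95% intervals of Ccnd3, Cdk4 and Skp2 include 0.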

Other observations

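The E2F core was also read in the promoter windows of the other genes of the pathway, as a description without a test. Of the 14 E2F target genes of S phase entry, 12 had a window and 7 of these held a core (Cdc6, Cdt1, Mcm3, Mcm5, Mcm6, Mcm7 and Rrm2). Of the 10 E2F and DP factor genes, 8 had a window and 5 held a core (E2f2, E2f3, E2f7, E2f8 and Tfdp1). Of the 10 G1 genes, 7 had a window and 2 held a core, Cdk2 and Cdc25a. The share among all windows was 9.57%. That is a share of single windows, whereas a gene was counted above if any of its windows held a core.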
